A study of Rattus norvegicus with 24 samples.

Results

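The 10 genes described here steer the G1 phase of the cell cycle, the stretch in which a resting cell does or does not commit to copying its DNA. They are the D-type cyclins Ccnd1, Ccnd2 and Ccnd3, cyclin E1 (Ccne1), the cyclin-dependent kinases Cdk4 and Cdk2, the retinoblastoma gene Rb1, the kinase inhibitors Cdkn1a and Cdkn1b, and the transcription factor Myc. They were chosen by gene symbol, and all 10 were found among the 22093 genes of the array. Each gene is represented by the transcript cluster, the unit of the array, that carried its symbol alone and had the highest mean over all livers.

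The RNA came from the liver of 24 male RccHan Wistar rats, which entered the study at 7 to 8 weeks of age, and each animal had an array of its own. Rotenone comes from plants and inhibits complex I, where electrons enter the mitochondrial respiratory chain. Treated animals ate chow with 400 ppm rotenone for 1, 3 or 14 days. Control animals of the same strain, sex and age ate untreated chow for the same times, and each of the 6 groups holds 4 livers. The median array intensity lay between 28.9 and 35.5. Over the clusters with a mean at or above the median, arrays of a group correlated between 0.990 and 0.996. The summed intensity of 8 hepatocyte markers, which check the labelled tissue, lay between 2.297e+06 and 2.591e+06 in every liver. The number of arrays limits the precision.

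As background, cells in G1 build D-type cyclins in answer to growth signals, and these bind CDK4. The complex adds phosphate to RB, which then lets go of the E2F transcription factors, and E2F switches on cyclin E, which with CDK2 carries the cell into S phase. The proteins p21 (Cdkn1a) and p27 (Cdkn1b) bind and restrain these kinases, while MYC drives the genes of growth. Hepatocytes of an adult liver mostly rest outside the cycle, and in rodents Ccnd1 is the cyclin known to rise when they are called back into it.

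Values below are log2 intensities, and a difference is rotenone minus control of the same day, with the standard error after ±. The words rose and fell are kept for differences with an adjusted p under 0.05 in limma, where the adjustment runs over every cluster of the array. On day 1, 4 of the 10 genes rose (Ccnd1, Ccnd3, Cdk2 and Cdk4) and 0 fell, where 5.69% of all genes rose and 3.73% fell. On day 3, Cdk2 rose, while Ccnd1, Ccnd2 and Ccne1 fell, where 3.53% of all genes rose and 3.11% fell. On day 14, Cdk2, Cdk4 and Cdkn1b rose, while Ccnd1, Cdkn1a and Myc fell, where 5.98% of all genes rose and 3.33% fell. At an unadjusted p under 0.05, 6, 8 and 8 of the 10 genes differed on these days. The share of all genes at the unadjusted cut was not counted, so such counts, here and below, have no background beside them. The median difference of the 10 genes was 0.32, -0.17 and -0.11 on days 1, 3 and 14, beside -0.03, 0.03 and 0.01 over all genes.

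**Figure D1:**
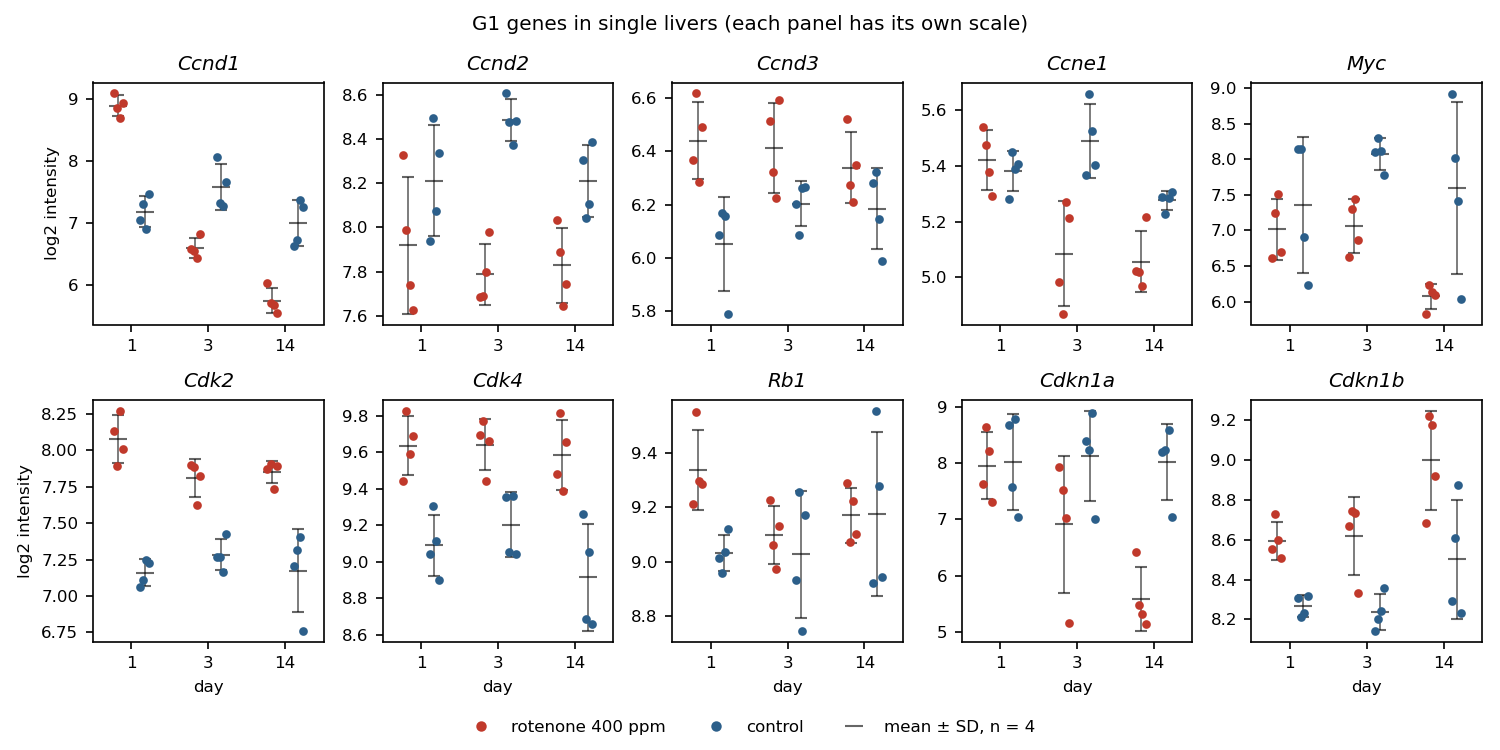
Log2 intensity of the 10 genes (vertical axes, one scale per gene) in single livers by day of diet (horizontal axis), with rotenone livers to the left of control livers of the same day, and the mean ± SD of 4 livers. Ccnd1 of rotenone livers lies above that of control livers on day 1 and below it on days 3 and 14, while Cdk2 and Cdk4 lie above on each of the 3 days.

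Ccnd1, the D-type cyclin that marks hepatocytes on their way into the cycle, was the member whose response turned round. On day 1 it measured 9.08, 8.85, 8.68 and 8.94 in rotenone livers, against 7.05, 7.31, 6.90 and 7.47 in control livers. On day 3 the values were 6.58, 6.56, 6.45 and 6.82 in rotenone livers, against 8.06, 7.33, 7.27 and 7.67 in control livers. By day 14 they were 6.04, 5.72, 5.68 and 5.56 in rotenone livers, against 6.64, 6.73, 7.37 and 7.26 in control livers. The groups did not overlap on any of the 3 days, with rotenone livers higher on day 1 and lower on the later days.

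Fitted over all arrays, Ccnd1 was 3.25-fold higher on day 1 (1.70 ± 0.18, limma, adjusted p = 5.77e-06). It was 1.97-fold lower on day 3 (-0.98 ± 0.18, limma, adjusted p = 0.00260) and 2.37-fold lower on day 14 (-1.25 ± 0.18, limma, adjusted p = 0.000196). A moderated F test asked whether the rotenone effect differed among the 3 days. It passed for Ccnd1 alone of the 10 genes (limma, adjusted p = 3.19e-06), and for 1.41% of all genes. Tested directly, the effect of day 3 lay 2.68 ± 0.26 below that of day 1 (limma, adjusted p = 3.95e-05), a difference that 0.127% of all genes passed in that direction. The effects of days 3 and 14 differed by -0.27 (95% interval -0.80 to 0.27, limma, adjusted p = 0.911).

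Within the rotenone livers, Ccnd1 on day 3 lay 4.87-fold below day 1 (-2.28 ± 0.18, limma, adjusted p = 1.16e-06), a fall shared by 0.756% of all genes. The later step, day 14 against day 3, was -0.85 ± 0.18 (limma, adjusted p = 0.0480), and 0.208% of all genes fell there. In rotenone livers of day 14 Ccnd1 stood 0.30 to 0.77 above the median negative control probe set of the same array, so the size of that fall is limited by the background of the array. Each of the 3 daily calls was kept when any 1 of the 24 livers was left out.

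Ccnd2, a D-type cyclin that works alongside Ccnd1, did not rise on any day. On day 3 it measured 7.69, 7.69, 7.80 and 7.98 in rotenone livers, against 8.61, 8.48, 8.37 and 8.48 in control livers, with no overlap. It fell 1.62-fold on that day (-0.70 ± 0.14, limma, adjusted p = 0.00608). On day 1 its values of 8.33, 7.99, 7.74 and 7.63 in rotenone livers overlapped with 7.94, 8.50, 8.08 and 8.34 in control livers (-0.29, 95% interval -0.59 to 0.01). On day 14 it measured 8.03, 7.89, 7.65 and 7.74 in rotenone livers, just below 8.30, 8.04, 8.11 and 8.39 in control livers, and that difference did not pass (-0.38 ± 0.14, limma, adjusted p = 0.142).

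Ccnd3, the remaining D-type cyclin, was weakly raised. On day 1 it measured 6.37, 6.62, 6.29 and 6.49 in rotenone livers, against 6.09, 6.17, 6.16 and 5.79 in control livers, and the groups did not overlap. The difference of 0.39 ± 0.11 stood at the threshold (limma, adjusted p = 0.0485), and 19 of the 24 fits that left out 1 liver lost it, with adjusted p up to 0.177. It was kept only without control replicate 4 of day 14, without rotenone replicate 3 of day 1, without rotenone replicate 3 or 4 of day 3, or without rotenone replicate 1 of day 14. With only the 8 arrays of day 1 it was lost as well (limma, adjusted p = 0.174). The differences on days 3 and 14 were 0.21 and 0.15 and did not pass. Ccnd3 of control livers on day 1 stood 0.49 to 0.90 above the median negative control of the same array. Another cluster with the symbol Ccnd3 was above the median negative control on 0 of 24 arrays and was not used.

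Ccne1, whose product joins CDK2 at the end of G1, lay near the background of the array, above the median negative control on 18 of 24 arrays. On day 3 it measured 4.98, 4.87, 5.27 and 5.21 in rotenone livers, against 5.37, 5.66, 5.52 and 5.40 in control livers. The groups did not overlap, and Ccne1 fell by 0.40 ± 0.10 on the log2 scale (limma, adjusted p = 0.0216), a call that 4 of the 24 fits without 1 liver lost, with adjusted p up to 0.0965. These were the fits without control replicate 2 or 3, or without rotenone replicate 1 or 2, of that day. It was lost too when only the 8 arrays of day 3 were fitted (limma, adjusted p = 0.19). Of the 6 arrays on which it was not above the negative controls, 2 were rotenone livers of day 3 and 3 were rotenone livers of day 14, so the size of the fall is limited. Its paralog Ccne2 fell by 1.11 ± 0.16 on day 3 (limma, adjusted p = 0.000219).

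Both kinases were higher in rotenone livers on every day. Cdk2, the partner of cyclin E, measured 8.13, 7.90, 8.27 and 8.01 in rotenone livers on day 1, against 7.06, 7.11, 7.25 and 7.23 in control livers. On day 3 it measured 7.90, 7.89, 7.63 and 7.83 in rotenone livers, against 7.27, 7.27, 7.17 and 7.43 in control livers. On day 14 it measured 7.87, 7.91, 7.74 and 7.89 in rotenone livers, against 7.21, 7.32, 7.40 and 6.76 in control livers. All 4 rotenone livers thus lay above all 4 control livers on each day. Cdk2 rose 1.89-fold on day 1 (0.92 ± 0.12, limma, adjusted p = 5.52e-05), 1.44-fold on day 3 (0.53 ± 0.12, limma, adjusted p = 0.0125) and 1.60-fold on day 14 (0.68 ± 0.12, limma, adjusted p = 0.00122). Each call was kept when any 1 liver was left out, but that of day 14 was lost when only the 8 arrays of the day were fitted (limma, adjusted p = 0.0523). The effect was not shown to differ among the days (limma, F test, adjusted p = 0.578).

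Cdk4 is the partner of the D-type cyclins. It measured 9.44, 9.83, 9.59 and 9.69 in rotenone livers of day 1, against 9.04, 9.31, 9.12 and 8.90 in control livers. On day 3 it measured 9.70, 9.77, 9.44 and 9.66 in rotenone livers, against 9.36, 9.06, 9.36 and 9.04 in control livers. The values of day 14 were 9.48, 9.82, 9.39 and 9.66 in rotenone livers, against 9.26, 8.69, 9.05 and 8.66 in control livers. The groups did not overlap on any day. The difference was 0.55 ± 0.14 on day 1 (limma, adjusted p = 0.0229), 0.44 ± 0.14 on day 3, which did not pass (limma, adjusted p = 0.101), and 0.67 ± 0.14 on day 14 (limma, adjusted p = 0.00548). Averaged over the 3 days, Cdk4 rose by 0.55 ± 0.08 (limma, adjusted p = 4.16e-05) and Cdk2 by 0.71 ± 0.07 (limma, adjusted p = 2.21e-07). The day 1 call of Cdk4 was lost in 4 of the 24 fits without 1 liver, with adjusted p up to 0.0882, namely without control replicate 1 or 4, or without rotenone replicate 2 or 4, of that day. With only the 8 arrays of a day, Cdk4 passed on neither day 1 nor day 14 (limma, adjusted p = 0.0625 and 0.0776).

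The sequences upstream of these kinase genes are shown because both kinases were higher on all 3 days. They are the bases of the RefSeq promoter window, on build GRCr8, that lie outside the gene, read 5′ to 3′ on the strand of the gene. Capitals mark the GC box GGGCGG, the CCAAT box, the E-box CACGTG that MYC and the clock proteins can bind, and AGGTCA, the core letters bound by REV-ERB and ROR receptors, each on either strand. Cdk2, chr7:1721965-1722128, minus strand, holds 3 GC boxes and 1 CCAAT. Cdk4, chr7:64771203-64771452, plus strand, holds 3 CACGTG, 2 AGGTCA that each overlap a CACGTG, and 1 GC box.
Cdk2: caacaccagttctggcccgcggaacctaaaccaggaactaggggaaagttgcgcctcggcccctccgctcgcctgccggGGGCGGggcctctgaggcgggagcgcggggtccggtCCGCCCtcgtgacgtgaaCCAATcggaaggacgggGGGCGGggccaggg
Cdk4: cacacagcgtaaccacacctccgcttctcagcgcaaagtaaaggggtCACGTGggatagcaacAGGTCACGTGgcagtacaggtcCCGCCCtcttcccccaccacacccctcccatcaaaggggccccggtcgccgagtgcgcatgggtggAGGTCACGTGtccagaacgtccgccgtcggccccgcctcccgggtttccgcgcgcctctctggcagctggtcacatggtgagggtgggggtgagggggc

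Windows of 250 bases, taken as lying before the start given in the promoter list, were there for 7 of the 10 genes. Of these windows, only that of Cdk4 lay wholly outside the RefSeq gene. The window of Ccnd3 lay wholly inside its gene, and those of Ccne1, Cdk2, Cdkn1a, Cdkn1b and Rb1 lay partly inside theirs. The counts that follow cover whole windows, so they include bases within genes. GGGCGG was found in 6 of the 7, where 30.5% of 33469 rat promoters hold it. CACGTG was found in Cdk4 alone of the 7, where 5.59% of all promoters hold it, and AGGTCA likewise in Cdk4 alone, where 14.1% hold it. CCAAT was found in Cdk2, Cdkn1b and Ccnd3, and in 34% of all promoters. TATAAA and the E2F letters TTTGGCGC and TTTCCCGC, held by 12.9%, 0.412% and 0.813% of all promoters, were in none of the 7 windows. A match of letters is a description and no measure of binding.

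Rb1, the brake that the kinases release, did not pass on any day. On day 1 it measured 9.21, 9.55, 9.30 and 9.28 in rotenone livers, against 9.01, 8.96, 9.04 and 9.12 in control livers, without overlap. The difference did not pass (0.30, 95% interval 0.03 to 0.57, limma, adjusted p = 0.230). It was 0.07 on day 3 (95% interval -0.20 to 0.34) and -0.0043 on day 14 (95% interval -0.27 to 0.27), where the groups overlapped.

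Of the inhibitors, Cdkn1a (p21) fell and Cdkn1b (p27) rose on day 14. Cdkn1a measured 7.62, 8.65, 8.22 and 7.32 in rotenone livers of day 1, against 8.68, 7.59, 8.79 and 7.04 in control livers. On day 3 it measured 7.93, 7.53, 7.03 and 5.16 in rotenone livers, against 8.40, 8.23, 8.90 and 7.00 in control livers. On day 14 it measured 6.41, 5.48, 5.32 and 5.14 in rotenone livers, against 8.21, 8.23, 8.60 and 7.04 in control livers. The groups overlapped on days 1 and 3 and stood apart on day 14.

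Cdkn1a fell 5.40-fold on day 14 (-2.43 ± 0.53, limma, adjusted p = 0.00761), a call kept when any 1 liver was left out. The differences were -0.07 on day 1 (95% interval -1.16 to 1.02) and -1.22 on day 3 (95% interval -2.32 to -0.13, limma, adjusted p = 0.289). With 1 liver left out, the difference of day 3 ranged from -1.6 (without control replicate 4) to -0.637 (without rotenone replicate 4) and did not pass in any of the 24 fits. Within rotenone livers, day 14 lay 2.37 ± 0.53 below day 1 (limma, adjusted p = 0.0114), where 3.58% of all genes fell. The change of the rotenone effect from day 1 to day 14 was not itself past the threshold (-2.36 ± 0.75, limma, adjusted p = 0.164). In rotenone livers of day 14, Cdkn1a stood between -0.12 and 1.15 from the median negative control of the same array, so this fall too is limited by the background.

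Cdkn1b was higher in rotenone livers, though weakly. On day 14 it measured 8.68, 9.22, 9.17 and 8.92 in rotenone livers, against 8.29, 8.61, 8.87 and 8.23 in control livers. It rose by 0.50 ± 0.14 (limma, adjusted p = 0.0346) although 1 control liver lay above the lowest rotenone liver, and 6 of the 24 fits without 1 liver lost the call, with adjusted p up to 0.138. These left out control replicate 1, 2 or 4, or rotenone replicate 2, 3 or 4, of that day, and the fit of the 8 arrays of day 14 alone lost it too (limma, adjusted p = 0.19). On day 1, values of 8.55, 8.73, 8.60 and 8.51 in rotenone livers lay above 8.31, 8.21, 8.23 and 8.32 in control livers. On day 3, 8.67, 8.74, 8.73 and 8.33 in rotenone livers overlapped with 8.14, 8.20, 8.24 and 8.36 in control livers. The differences of 0.33 and 0.38 on those days did not pass, while the average over the 3 days did (0.40 ± 0.08, limma, adjusted p = 0.000912).

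Myc spread widely among control livers of days 1 and 14. It measured 6.61, 7.24, 7.51 and 6.69 in rotenone livers of day 1, against 8.14, 8.15, 6.90 and 6.23 in control livers. On day 3 it measured 6.62, 7.30, 7.45 and 6.87 in rotenone livers, against 8.10, 8.30, 8.11 and 7.77 in control livers, without overlap. On day 14 it measured 5.83, 6.23, 6.13 and 6.09 in rotenone livers, against 8.92, 8.02, 7.41 and 6.04 in control livers, of which replicate 4 lay among the rotenone livers. The differences were -0.34 on day 1, -1.01 ± 0.44 on day 3 (limma, adjusted p = 0.291) and -1.52 ± 0.44 on day 14 (limma, adjusted p = 0.0490). Only the last passed, and 20 of the 24 fits without 1 liver lost it, with adjusted p up to 0.149. It was kept only without control replicate 1, 2 or 4 of day 1 or without control replicate 4 of day 14. With only the 8 arrays of a day, Myc passed on day 3 (limma, adjusted p = 0.0334) and not on day 14 (limma, adjusted p = 0.152). Leaving out 1 liver moved the difference of day 1 between -0.72 and -0.08. The average over the 3 days was -0.96 ± 0.25 (limma, adjusted p = 0.0134). Myc of rotenone livers on day 14 stood 0.57 to 1.22 above the median negative control of the same array. The size of the fall on day 14 is thus limited by the background.

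**Figure D2:**
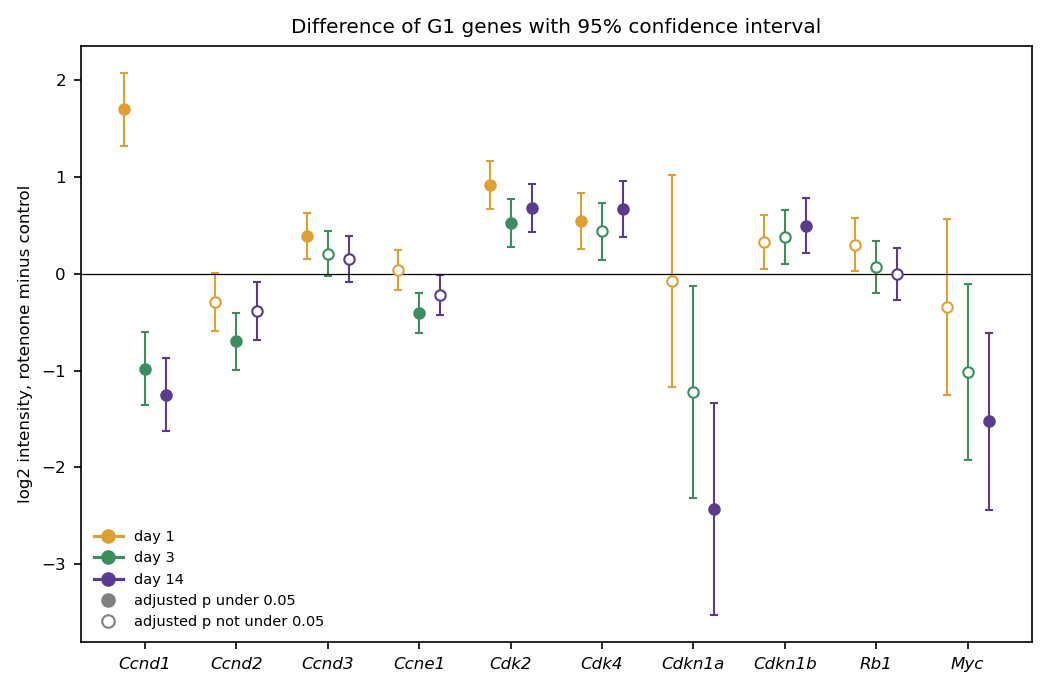
Difference of log2 intensity, rotenone minus control (vertical axis), of the 10 genes (horizontal axis) on days 1, 3 and 14, with 95% confidence intervals from 4 rotenone and 4 control livers a day. Filled points passed the threshold, and the intervals of Cdkn1a and Myc are the widest while the sign of Ccnd1 turns between days 1 and 3.

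Counting livers rather than tests, all 4 rotenone livers lay above all 4 control livers for 6 of the 10 genes on day 1, where 10.4% of all genes showed this, and below for 0, where 8.38% did. On day 3 they lay above for 2 (Cdk2 and Cdk4) and below for 4 (Ccnd1, Ccnd2, Ccne1 and Myc), where 9.27% and 7.41% of all genes did. On day 14 they lay above for the same kinases and below for Ccnd1, Ccnd2, Ccne1 and Cdkn1a, where 9.47% and 5.95% did. Averaged over the 3 days, 4 genes rose (Ccnd3, Cdk2, Cdk4 and Cdkn1b) and 4 fell (Ccnd2, Ccne1, Cdkn1a and Myc), where 12.7% of all genes rose and 8.31% fell. For Ccnd1 the average was -0.17 ± 0.11 (limma, adjusted p = 0.346), since opposite effects entered it.

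In control livers compared with each other across days, 0 of the 10 genes passed in limma. At an unadjusted p under 0.05, 1 did between days 1 and 3, 0 between days 1 and 14, and 2 between days 3 and 14. Over all genes, 0%, 0.177% and 0.299% passed after adjustment in these comparisons, which is no background for the unadjusted counts. The 2 of days 3 and 14 were Ccnd1 (-0.58 ± 0.18) and Ccne1 (-0.21 ± 0.10), both lower on day 14.

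For each gene past the threshold on any day, the genes that followed it most closely were taken as those with the smallest root mean square difference over the 24 livers, after each was centred on its own mean. Only genes whose mean was at or above the median over genes were searched, 11047 for Ccne1 and 11046 for each other gene, so a dimmer gene could not be named. Ccnd1, with a standard deviation of 1.00 over the livers, was followed by Pkp2, a plaque protein of desmosomes, at 0.461 and by Plin2, which coats lipid droplets, at 0.502. Pkp2 turned round as Ccnd1 did, with differences of 1.06 ± 0.20, -1.10 ± 0.20 and -0.95 ± 0.20 on days 1, 3 and 14, and all 3 passed. Plin2 gave 0.89, -0.56 and -0.76, which did not pass (limma, adjusted p = 0.0596, 0.357 and 0.113). These likenesses are a description over livers that share their diet groups.

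The kinases were followed by genes that rose on every day. For Cdk2 (standard deviation 0.40) these were the RNA-binding protein Pcbp2 at 0.138 and Atp6ap1, an accessory subunit of the vacuolar proton pump, at 0.149. For Cdk4 (0.34) they were the actin-binding Coro1b at 0.141 and Commd9 at 0.146. Ccnd2 (0.31) was followed by the actin crosslinker Flna at 0.128, which fell by 0.79 on day 3, and by Filip1l at 0.167. Cdkn1b (0.31) was followed by Cdadc1 at 0.138 and Ak3, a mitochondrial adenylate kinase, at 0.140. For Ccnd3 (0.19) the nearest were Pear1 at 0.101 and Fbrsl1 at 0.102, and for Ccne1 (0.20) Ipo9 at 0.117 and Tmem50a at 0.121. Myc (0.87) was followed by Trib1, a pseudokinase, at 0.475 and Irf2bpl at 0.573.

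Cdkn1a, with a standard deviation of 1.19, was followed by Sesn2, a stress-induced brake on mTORC1, at 0.553, and by Bmal1, the core activator of the circadian clock, at 0.600. On day 14 Sesn2 measured 9.74, 8.83, 8.72 and 9.06 in rotenone livers, against 11.39, 11.57, 11.15 and 10.87 in control livers, and it fell by 2.16 ± 0.36 (limma, adjusted p = 0.000697). Bmal1 measured 9.80, 8.14, 7.85 and 7.28 in rotenone livers of day 14, against 10.31, 10.65, 10.47 and 10.30 in control livers (-2.16 ± 0.41, limma, adjusted p = 0.00266). Both were lower in all 4 rotenone livers.

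The clock genes Nr1d1, Dbp and Per1 were set beside Cdkn1a after their values were seen. Nr1d1 encodes REV-ERB alpha, which represses Bmal1, and Dbp is a clock output gene. Of rotenone livers on day 3, replicate 4 had the lowest Cdkn1a (5.16). This value stood 0.04 above the median negative control of its array, so how low it lay is limited by the background. The same liver had the lowest Bmal1, at 7.97 beside 9.97 to 10.38 in the other 3. It also had the highest Nr1d1, at 12.24 beside 8.51 to 9.66, and the highest Dbp, at 9.56 beside 5.53 to 5.80. On day 14, replicate 1 of the rotenone livers had the highest Cdkn1a (6.41), the highest Bmal1 (9.80), the lowest Nr1d1 (11.50) and the lowest Dbp (7.15) of its group.

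This order did not hold in every liver. On day 1, replicate 4 of the rotenone livers had the lowest Cdkn1a (7.32) and the lowest Dbp (5.98), while its Nr1d1 (8.13) and Bmal1 (10.32) lay inside the range of its group. On day 3 the highest Cdkn1a was that of replicate 1 (7.93) and the highest Bmal1 that of replicate 3 (10.38). On day 14, replicate 4 had the lowest Cdkn1a (5.14), the lowest Bmal1 (7.28) and the highest Dbp (10.09), but its Nr1d1 (12.05) lay below the 12.72 of replicate 2. Per1, a repressor within the clock, did not pass on any day, with differences of -0.42, -0.44 and -0.28 (limma, adjusted p = 0.718, 0.771 and 0.863). On day 14 it measured 6.64 in rotenone replicate 1, inside the group's range of 6.41 to 7.67.

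Nr1d1 of day 1 measured 8.58, 6.83, 7.51 and 8.13 in rotenone livers, against 5.55, 5.19, 5.51 and 5.44 in control livers. The control livers stood between -0.24 and 0.33 from the median negative control of the same array, so the size of its rise (2.34 ± 0.52, limma, adjusted p = 0.00855) is limited by the background. On that day Cdkn1a differed by -0.07 and Bmal1 by -0.12, and neither passed. Nr1d1 rose by 4.37 ± 0.52 on day 3 (limma, adjusted p = 2.45e-05) and by 6.38 ± 0.52 on day 14 (limma, adjusted p = 1.77e-07). Its control livers stood 0.03 to 0.27 above the median negative control on day 3 and 0.27 to 0.65 on day 14. The sizes of these rises are thus limited by the background too. Dbp did not pass on days 1 and 3 (0.11 and 0.65) and rose by 3.23 ± 0.63 on day 14 (limma, adjusted p = 0.00320). Dbp of control livers on day 14 stood 0.25 to 0.97 above the median negative control, which limits the size of its rise. The part of the clock genes in the fall of Cdkn1a was not tested.

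**Figure D3:**
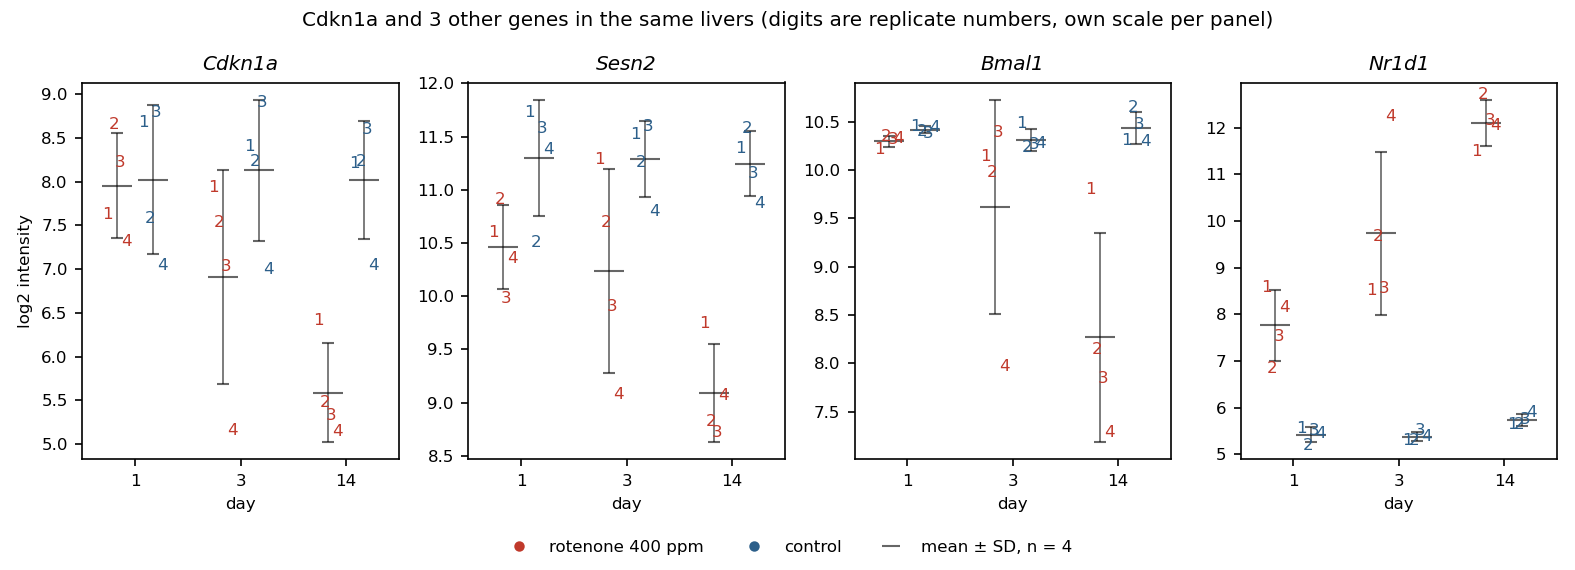
Log2 intensity (vertical axes, one scale per gene) of Cdkn1a, Sesn2, Bmal1 and Nr1d1 by day (horizontal axis), each digit being 1 liver by its replicate number, rotenone left of control, with mean ± SD of 4 livers. Rotenone replicate 4 of day 3 sits with the rotenone livers of day 14 in Cdkn1a (5.16, near the median negative control), Bmal1 (7.97) and Nr1d1 (12.24).

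In all 6 groups the liver numbered 4 had the lowest Cdkn1a, which 10 of the 22093 genes (0.0453%) showed. Without the livers numbered 4, a fit chosen after seeing the data, 4 of the 10 genes passed on day 14 in place of 6, with Cdk4 (0.56, limma, adjusted p = 0.115) and Cdkn1b (0.44, limma, adjusted p = 0.192) lost. Cdkn1a was then at -2.61 (limma, adjusted p = 0.00137).

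Of 26 further regulators of G1 and S phase entry, 1 rose and 0 fell on day 1, 2 rose and 6 fell on day 3, and 1 rose and 1 fell on day 14. The share past the threshold was 3.85%, 30.8% and 7.69%, beside 9.41%, 6.64% and 9.31% of all genes in either direction, so that on days 1 and 14 it was no higher than over all genes. The median differences of the list were -0.03, -0.10 and 0.04. E2f4, an E2F that represses target genes in resting cells, rose by 0.90 ± 0.13 on day 1 and by 0.70 ± 0.13 on day 3, when its pocket protein partner Rbl2 rose too (0.69 ± 0.13). Rbl1 (-1.002 ± 0.17), E2f1 (-0.30 ± 0.08), E2f8 (-0.50 ± 0.12), Tfdp1 (-0.35 ± 0.08) and Skp2 (-0.40 ± 0.09), the ubiquitin ligase subunit that marks p27 for breakdown, fell with Ccne2 on day 3. On day 14 Cks1b, which works with SKP2, rose by 0.49 ± 0.14, and Cdk6, the sister kinase of Cdk4, fell by 0.57 ± 0.14. Of the 11 genes of the MYC network, such as Max and the Mxd repressors, 0 passed in limma on any day, with 3, 1 and 3 at an unadjusted p under 0.05 on days 1, 3 and 14.

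Of 17 measured genes of p53 signalling, which include Sesn2 and share the regulator of Cdkn1a, 1 rose and 1 fell on day 1, 0 rose and 2 fell on day 3, and 1 rose and 2 fell on day 14. These are 11.8%, 11.8% and 17.6% of the list, beside 9.41%, 6.64% and 9.31% of all genes, and the share of day 1 was near that of all genes. The median differences were 0.04, -0.06 and 0.11. The nuclease Aen rose on day 1 (0.52 ± 0.13) and the ribonucleotide reductase subunit Rrm2b on day 14 (0.56 ± 0.14), while Phlda3 fell on day 3 (-0.73 ± 0.14) and day 14 (-0.86 ± 0.14) and Sesn1 on day 1 (-0.85 ± 0.15) and day 3 (-0.56 ± 0.15). Sesn2 was the other gene of the list that fell on day 14. Of 11 immediate early genes, Fosl1 fell on day 1 (-0.42 ± 0.12) and Fosb on day 3 (-0.63 ± 0.11), and the rest did not pass on any day. These are 9.09% of the list on days 1 and 3 and 0% on day 14, the first near the share of all genes.

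Of the 6 lists, those of later cycle phases had the highest shares past the threshold on day 3, at 61.5% and 100%. Of 13 S phase targets of E2F, 4 fell on day 1, 8 on day 3 and 1 on day 14, and 0 rose, with medians of -0.23, -0.64 and -0.12, where 3.73%, 3.11% and 3.33% of all genes fell on these days. Rrm2, the S phase subunit of ribonucleotide reductase, fell on each day (-2.78 ± 0.46, -5.90 ± 0.46 and -1.93 ± 0.46). Of 13 markers of dividing cells, 9 fell on day 1, all 13 on day 3 and 3 on day 14, with medians of -0.71, -1.53 and -0.49. Mki67, the proliferation antigen Ki-67, fell on these days (-1.51 ± 0.33, -4.29 ± 0.33 and -1.95 ± 0.33), and so did the topoisomerase Top2a (-1.68 ± 0.35, -3.74 ± 0.35 and -1.46 ± 0.35). These lists were written with earlier results of the same livers known, and the study had itself named the cell cycle, so their counts are not independent evidence of direction.

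**Figure D4:**
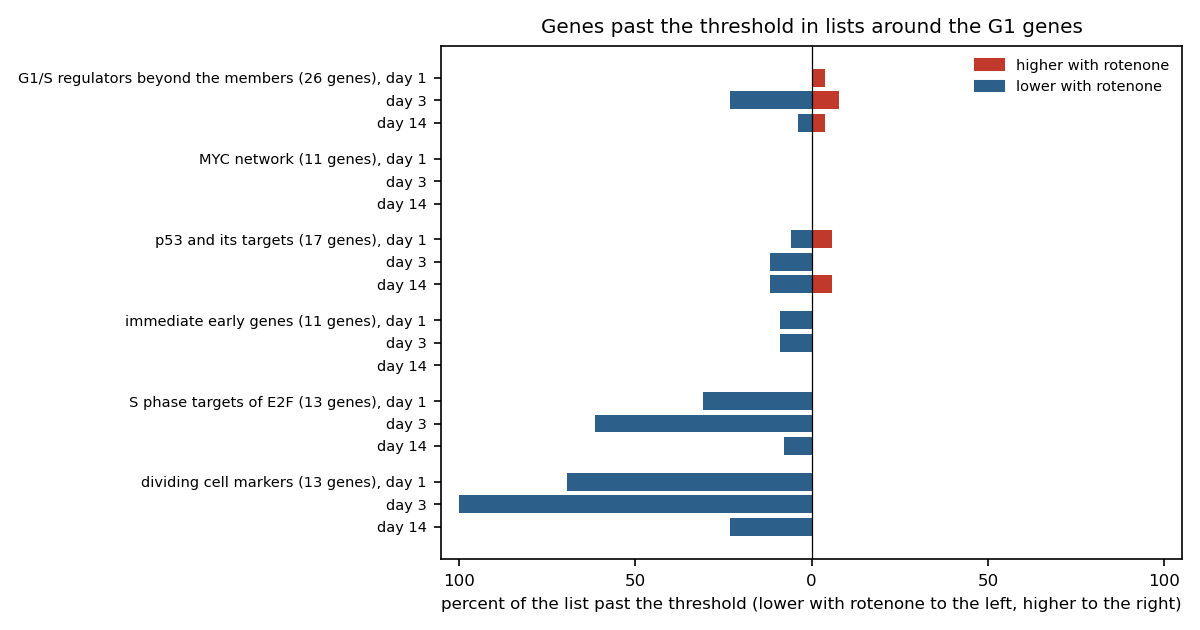
Share of each list past the threshold (horizontal axis, percent of its measured genes) on days 1, 3 and 14 for 6 lists around the G1 genes, with genes higher in rotenone livers to the right and lower to the left. The dividing cell markers reach 13 of 13 lower on day 3, and the MYC network has 0 on any day.

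The RNA was that of whole liver, in which fewer cells of a type and less RNA per cell cannot be told apart. In several marker lists of other cells, genes passed the threshold on the same days as the G1 genes. Over all genes, 5.69% rose on day 1, and 3.11% and 3.33% fell on days 3 and 14. On day 1, when Ccnd1 rose, 5 of 7 sinusoidal endothelial markers rose. Their summed intensities were 2.693e+04 to 4.806e+04 in rotenone livers, against 1.925e+04 to 2.945e+04 in control livers. On the same day 2 of 8 Kupffer cell markers rose (1.8e+04 to 2.668e+04, against 1.137e+04 to 2.175e+04). The sums of both lists overlapped between the groups. On days 3 and 14, 5 and 4 of 8 stellate cell markers fell. Their sums were 6136 to 8613 in rotenone livers, against 1.253e+04 to 1.642e+04 in control livers, on day 3, and 5078 to 8387, against 1.105e+04 to 1.349e+04, on day 14. Of 7 erythroid markers, 3 fell on day 3 and 5 on day 14. Their sums overlapped on day 3, at 1.973e+05 to 2.72e+05 in rotenone livers, against 2.659e+05 to 3.075e+05 in control livers. On day 14 the sums were 3238 to 1.374e+05 in rotenone livers, against 2.242e+05 to 3.466e+05 in control livers. Of 8 Kupffer cell markers, 3 fell on day 14 (7030 to 1.233e+04, against 1.482e+04 to 2.176e+04). Of the 7 sinusoidal endothelial markers, 1 (Kdr, 0.66 ± 0.18) rose on day 14, where 5.98% of all genes rose.

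Of 8 hepatocyte markers, Apoa1 alone passed, being higher on day 1 (0.64 ± 0.18) and lower on day 14 (-1.90 ± 0.18). Of the 7 measured lymphocyte and 5 neutrophil markers 0 passed in limma on any day, with 1 at an unadjusted p under 0.05 on day 1 and 1 on day 14, both of lymphocytes, and the defining genes Ms4a1, S100a8 and Mpo were not above the median negative control on any array. Of 6 cholangiocyte markers, Epcam rose on day 14 (1.15 ± 0.24). The part of these cells in the changes of the G1 genes was not tested.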

How the data were processed

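RNA of 24 livers was hybridised to the Rat Transcriptome Array 1.0, 1 array per animal. From the scans, the authors made 1 intensity per transcript cluster. They corrected probes for base content (Guanine Cytosine Count Normalization), rescaled arrays (Signal Space Transformation) and summarised probes by RMA. From their range, the deposited values appear linear, so log2 was taken after adding 1. The genome build behind the array design is not given in the sources used here. Of 70580 features, 1738 control probe sets were set aside, and 1153 of these, the negative controls, had medians of 5.01 to 5.43 (log2) per array. Of the 68842 clusters left, 23446 carried 1 symbol, 505 several and 44891 none. Of the 22093 genes, 37.8% lay below the median negative control.

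A model with 6 group means over all 24 arrays was fitted with limma 3.58.1 in R 4.3.3 (tables in Python 3.11.15). Tests were two-sided, with Benjamini-Hochberg adjustment over the 68842 clusters and a threshold of 0.05. On simulated data for day 1, over 68842 clusters, sets of 50 changed clusters were called in 48% of cases at 1.5-fold, 86% at 2-fold, 98% at 4-fold and 92% at 0.5-fold. All clusters outside these sets were simulated without change, and the noise was normal. In the livers many more genes passed, so these shares need not hold there.

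The 10 genes, the lists and the tests were chosen with earlier results of these data known. Named were all 10 genes, the 2 nearest genes of each that passed, and the largest rise and fall of each pathway list and day. Other genes named from the lists were chosen after their values were seen. Alternatives changed the filter, variance prior, array weights, normalization, replicate block, pseudocount, clusters, arrays and fold.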

Additional observations from a re-analysis of the deposited data

Results flagged for a closer look

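The rotenone effect on Ccnd1 differed among the 3 days, by a moderated F test of the difference itself over all 24 livers (limma, adjusted p = 3.19e-06). The differences were 1.70 ± 0.18 on day 1, -0.98 ± 0.18 on day 3 and -1.25 ± 0.18 on day 14, each from 4 rotenone and 4 control livers, with every rotenone liver on the same side of the control livers within a day. The other 9 genes did not pass this test, and the nearest to it were Ccne1 (limma, adjusted p = 0.312) and Cdkn1a (limma, adjusted p = 0.324). Of the 60 sets of 4 livers, one for each gene and group, 0 held a liver farther from the others than Dixon's 95% critical value for 4 allows.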

How the results depend on the processing

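Single values of the 10 genes were counted under each alternative setting, including the other Ccnd3 cluster. Fits without 1 liver entered this count only where the liver was of the day compared. Calls lost without a liver of another day are thus not in it. Of these values, 483 kept their direction and side of the threshold, 45 lost the call and 3 gained it. Another 12 changed sign, all 12 of differences that had not passed. Fitting only the 8 arrays of a day left 2 genes past the threshold on day 1 (in place of 4) and 2 on day 14 (in place of 6), where Cdk2 had 0.68 with limma, adjusted p = 0.0523. Day 3 still gave 4, with Ccne1 lost (limma, adjusted p = 0.19) and Myc gained (0.0334). Asking also for 1.8-fold left 2, 1 and 3 on days 1, 3 and 14 and 2 for the average (in place of 8), and the share of all genes at that cut is not given here. A filter after the study's methods took an ANOVA p under 1e-06 for diet, or under 0.0001 for a diet effect that differed by day. It also asked for 1.8-fold and a Kruskal-Wallis p under 0.05 within the day. This left 2, 1 and 1, beside 329, 298 and 293 of all 22093 genes. The study's criterion for time was not used and how it joined its criteria is not stated, so the filter need not match the study's. Without the livers numbered 4, chosen after seeing the data, day 1 gave 2. Leaving out 1 liver at a time gave 2 to 4 on day 1, 3 to 4 on day 3, 4 to 6 on day 14, 8 to 8 for the average, 1 to 1 for the test among days and 0 to 0 for control livers of day 14 against day 1.

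Array-median centring turned Cdkn1a on day 1 to 0.022 and Rb1 on day 14 to 0.0168, and dropped Cdkn1b and Myc from the calls of day 14, while quantile normalization dropped Myc. With 1 liver left out, Cdkn1a on day 1 ranged from -0.399 to 0.186, Rb1 from -0.0223 to 0.147 on day 3 and from -0.0881 to 0.122 on day 14, and Ccne1 on day 1 from -2.6e-05 to 0.0815. The cause was not tested. Cdk4 on day 3 passed when dim clusters were left out, or when only the 1 chosen cluster of each gene was fitted (limma, adjusted p = 0.047 and 0.0359). These fits held fewer clusters and estimated the variance prior anew, and which of these mattered was not tested.

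Over all genes, 2080, 1467 and 2057 passed on days 1, 3 and 14. Only the 8 arrays of a day gave 1115, 845 and 736, and only the 1 chosen cluster of each gene gave 3321, 2509 and 3200. Fits without 1 liver gave 1483 to 2214, 916 to 1570 and 1247 to 2219. Without the livers numbered 4 the counts were 1263, 930 and 832. The test among days called 311 genes, and 113 (without the livers numbered 4) to 998 (only the 1 chosen cluster of each gene) elsewhere. Control livers of day 14 against day 1 differed in 39, and in 0 to 81 elsewhere. Of genes called on day 1, 60.4% were higher, and 76.6% after array-median centring, which moved the median of all genes to 0.06.

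The labels do not say what the replicate numbers stand for, and the main fit did not pair livers by them. Over the clusters with a mean at or above the median, deviations of same-numbered livers of a day correlated between -0.114 and 0.169. Of these, 2 of 12 pairs were over 0.1 and 4 of 12 were best with their own number. Whether the numbers carry a shared order or batch was not tested, and the liver numbered 4 had the lowest Cdkn1a in all 6 groups. With the replicate block, Ccnd3 was lost on day 1 (3 genes in place of 4, limma, adjusted p = 0.0651), and no other daily call of the 10 genes changed. The block gave 1926, 1321 and 1886 genes called in all. Changes of genes near the negative controls, such as Ccne1, and Ccnd1, Cdkn1a and Myc on day 14, are limited by the background. So is the Cdkn1a value of rotenone replicate 4 on day 3.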
